A study of Mus musculus with 2 samples.

Results

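The forkhead genes encode transcription factors that share a winged-helix DNA-binding domain, and they were taken here as the protein-coding genes of the RefSeq gene table for the mm10 mouse genome with a symbol of the form Foxa1 to Foxs1. The rule gave 43 genes of 20583 protein-coding genes whose strand was known. H3K4me3, trimethylation of lysine 4 of histone H3, had been mapped by chromatin immunoprecipitation and sequencing (ChIP-seq) in E14TG2a.4, a line of mouse embryonic stem cells that the labels give as male, embryonic in stage and of strain 129/Ola. The series holds 1 group of 2 biological replicates of this single line, with no treatment, no second genotype and no other cell type named. The deposited data are peak lists, and the depth of the libraries is unknown. With 1 group no test between conditions was possible, so the values below are descriptions, with both replicates given as their error. The labels do not say whether the replicates came from separate thaws or cultures, and their spread may be technical.

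Forkhead factors read short DNA motifs through the winged helix, and some of them open closed chromatin. A few members are transcribed in nearly every tissue, among them the FoxO factors, which insulin signalling holds in the cytoplasm, and Foxm1, which drives mitotic genes. Most others act in one organ or lineage, such as the liver, kidney, forebrain, thyroid or thymus. H3K4me3 lies at the start of transcribed genes, and in embryonic stem cells it also lies at many CpG-rich promoters of silent developmental genes, often beside the repressive mark H3K27me3. H3K27me3 and transcription were not analysed here. In a bulk ChIP of many cells, a mark in fewer cells and less mark per cell cannot be told apart.

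The 43 genes were split, from textbook knowledge of where they are transcribed, into 12 ubiquitous members and 31 lineage members. Marked genes are those with a peak less than 1 kb upstream or downstream of the annotated 5′ end. The signal of a gene is the highest value the authors gave to such a peak, a ratio of ChIP over control. Its domain is the run of peaks joined across gaps under 1 kb. Unless another list is named, values come from the replicated list, which holds the peaks of the pooled reads that were kept as found in both replicates. For that reason its signals lie on the scale of the pooled reads, and 31 of 39 marked members had a value there above both replicates.

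Nearly all forkhead genes carried the mark, and what separated the classes was its strength. Marked genes numbered 39 of 43 (90.7%), against 68.4% of all protein-coding genes. All 12 ubiquitous members and 27 of 31 lineage members (87.1%) were marked. The same 39 genes had a promoter peak in both replicate lists, where 67.8% of all genes did, and 68.7% and 68.6% of all genes had one in the lists of replicate 1 and replicate 2. The pooled list marked 40 members, where 69.8% of all genes were marked. The unmarked genes were Foxi1, Foxn1, Foxp3 and Foxr2.

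The sequence upstream of the start is shown for 6 annotated starts that span this range, because CpG density is the feature by which promoters in stem cells are usually classed. Each run is the 250 bases before a RefSeq start, 5′ to 3′ on the gene's own strand, in the GRCm38.p6 build, with each CpG dinucleotide in capitals. Foxk2 had the highest signal of the family in the replicated list, Foxc1 and Foxd3 are lineage members with a mark, Foxi1 and Foxp3 have no peak, and the Foxp1 run belongs to a start inside that gene.
Foxk2, chr11:121259737-121259986, plus strand: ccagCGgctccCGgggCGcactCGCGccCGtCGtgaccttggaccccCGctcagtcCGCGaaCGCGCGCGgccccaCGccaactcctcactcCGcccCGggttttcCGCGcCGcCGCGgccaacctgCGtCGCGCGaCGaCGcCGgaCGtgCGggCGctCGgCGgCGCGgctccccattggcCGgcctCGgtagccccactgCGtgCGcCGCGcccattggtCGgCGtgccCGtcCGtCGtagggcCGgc
Foxc1, chr13:31806396-31806645, plus strand: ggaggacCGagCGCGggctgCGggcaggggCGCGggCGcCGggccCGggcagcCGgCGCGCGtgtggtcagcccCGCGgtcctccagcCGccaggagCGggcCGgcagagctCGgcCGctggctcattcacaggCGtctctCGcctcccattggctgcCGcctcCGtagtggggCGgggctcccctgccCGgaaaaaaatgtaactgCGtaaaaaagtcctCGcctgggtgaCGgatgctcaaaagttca
Foxd3, chr4:99656049-99656298, plus strand: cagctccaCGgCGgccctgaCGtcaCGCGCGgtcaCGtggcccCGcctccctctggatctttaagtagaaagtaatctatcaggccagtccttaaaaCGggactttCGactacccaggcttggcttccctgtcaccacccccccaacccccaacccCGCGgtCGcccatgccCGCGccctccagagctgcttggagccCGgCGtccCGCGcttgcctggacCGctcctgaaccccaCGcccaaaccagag
Foxi1, chr11:34208090-34208339, minus strand: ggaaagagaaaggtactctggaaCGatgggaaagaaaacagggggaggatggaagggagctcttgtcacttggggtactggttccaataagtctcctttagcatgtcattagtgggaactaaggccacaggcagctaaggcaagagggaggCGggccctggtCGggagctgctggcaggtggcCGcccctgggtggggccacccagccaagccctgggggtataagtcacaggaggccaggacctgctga
Foxp3, chrX:7579426-7579675, plus strand: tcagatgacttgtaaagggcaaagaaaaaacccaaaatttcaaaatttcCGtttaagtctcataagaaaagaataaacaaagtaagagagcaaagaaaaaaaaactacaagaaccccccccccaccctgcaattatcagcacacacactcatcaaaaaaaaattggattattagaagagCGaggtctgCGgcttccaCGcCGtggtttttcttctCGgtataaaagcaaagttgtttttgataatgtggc
Foxp1 internal start, chr6:99028299-99028548, minus strand: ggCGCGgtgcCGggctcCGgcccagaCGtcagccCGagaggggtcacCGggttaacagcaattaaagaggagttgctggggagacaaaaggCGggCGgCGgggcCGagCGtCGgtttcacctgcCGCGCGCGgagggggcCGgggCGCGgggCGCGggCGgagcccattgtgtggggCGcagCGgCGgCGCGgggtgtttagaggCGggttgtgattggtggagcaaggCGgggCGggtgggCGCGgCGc

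CpG dinucleotides had a higher median count in the marked promoters than in the unmarked ones. The Foxk2 run holds 48 of them, Foxc1 29 and Foxd3 21, whereas Foxi1 holds 4 and Foxp3 holds 6. RefSeq promoters were at hand for 27 of the 43 members. Those of Foxa1, Foxn3, Foxp1 and Foxr2 start more than 1 kb inside the gene and were left out of the medians. The median was 32.5 CpG in 6 ubiquitous members, 16.5 in 14 marked lineage members and 6 in 3 unmarked genes. The sets overlapped, with 3 CpG at the marked gene Foxi2 and 7 at the unmarked gene Foxn1. Over 14795 protein-coding genes read in the same way the median was 11, with 16 in marked and 2 in unmarked genes. The forkhead core motif TGTTTAC, sought on both strands, was in 1 of the 27 members, at the internal start of Foxa1, and in 2.58% of 16539 promoters of all genes.

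Promoters of the ubiquitous members had about the strength of a typical marked gene, and those of the lineage members were weaker. The median signal of the 12 ubiquitous members was 51.6 (quartiles 41.6 and 55.6), that of the 27 marked lineage members was 17.8 (13.8 and 27.8), and that of all 14073 marked genes was 43.1 (23.7 and 57.8). In replicate 1 the class medians were 43.8 and 16.9, and in replicate 2 they were 46.2 and 16.5. The lineage median of replicate 2 is over 28 members, because Foxn1 had a weak peak there. The mean over replicates was 45 ± 1.73 (SD, n = 2) for the ubiquitous class and 16.7 ± 0.307 (SD, n = 2) for the lineage class. The gap between the classes was larger than this spread between replicates, which does not measure the spread between genes. Signals above the median of all marked genes were found in 9 of 12 ubiquitous members and in 3 of 27 lineage members, with 49.9% of all marked genes above it. The classes overlapped, since the lowest ubiquitous member, Foxp1, stood at 19.3, with 12 marked lineage members above that value, 14 below it and Foxf1 equal to it. Below the second lowest, Foxo4 at 29.6, lay 22 of the 27.

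**Figure D1:**
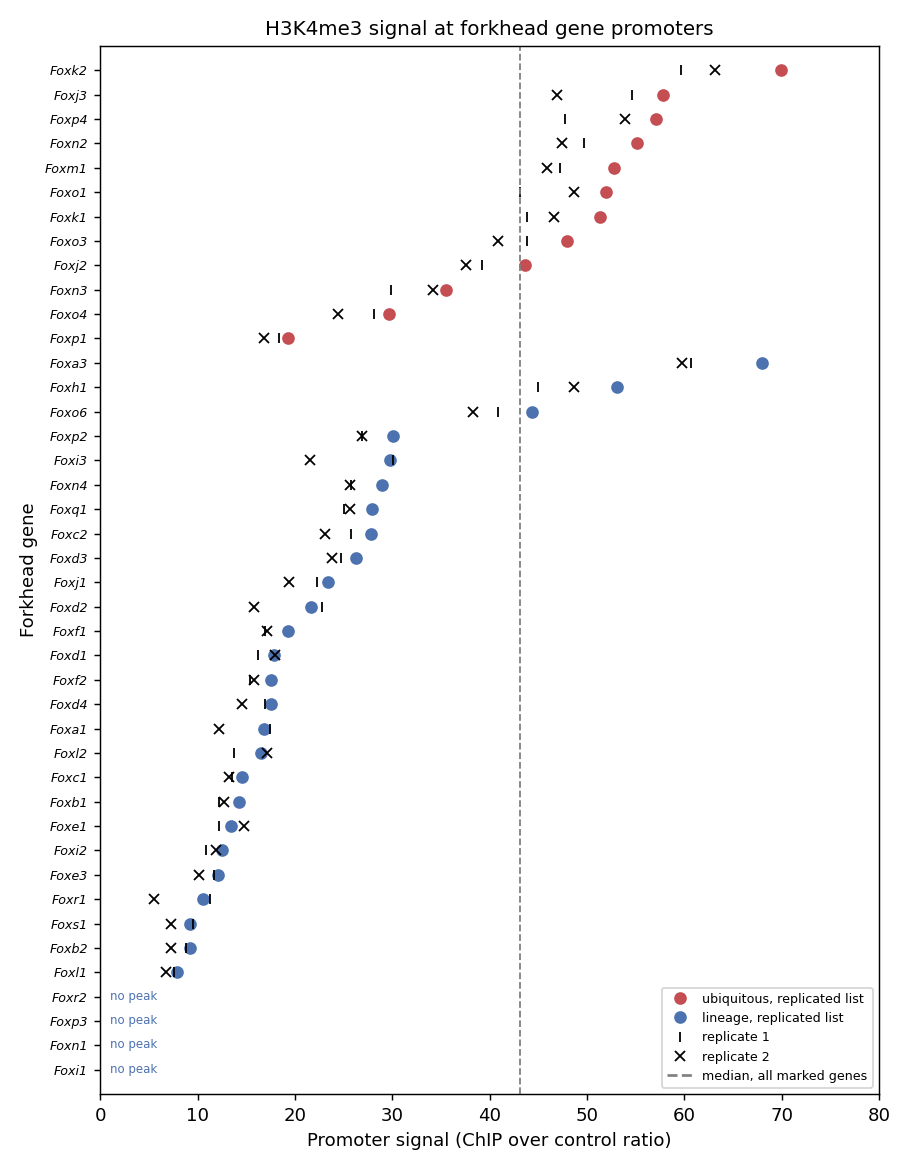
Promoter signal (ratio of ChIP over control, horizontal axis) of the forkhead genes described here, with filled points for the replicated list, short bars for replicate 1, crosses for replicate 2 and a dashed line at the median of all marked genes, 43.1. Of the lineage members, Foxa3, Foxh1 and Foxo6 lie right of the line, and the others with a peak lie between 7.91 and 30.1.

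The factors of the insulin and growth pathway were marked throughout, with Foxo4 weakest. Foxo1, Foxo3 and Foxo4 are held in the cytoplasm after phosphorylation by Akt and activate stress, cell cycle arrest and metabolic genes when released. Foxo1 had a signal of 51.9, with 43.1 in replicate 1 and 48.7 in replicate 2. Foxo3 had 47.9, with 43.8 and 40.9 in the replicates. Foxo4, on the X chromosome, had 29.6, with 28.1 and 24.4, so each of its replicate values lay under both of Foxo1 and Foxo3. Foxo6, the brain member of the group and placed with the lineage genes, had 44.3, with 40.9 and 38.3. Domains were 4.26 kb at Foxo1, 5.79 kb at Foxo3, 5.44 kb at Foxo4 and 2.14 kb at Foxo6, against 2.43 kb for the median marked gene. The narrow Foxo6 domain depended on the setting. With gaps up to 3 kb joined it spanned 6624 bp, against 4262 bp at Foxo1, 5786 bp at Foxo3 and 7511 bp at Foxo4. In the mm9 list it spanned 8000 bp, against 5000 bp, 6200 bp and 9000 bp, so Foxo4 was the widest in both. Of 23 genes that regulate or assist FoxO factors, 19 were marked, with a median signal of 47.2. All 23 have CpG-rich promoters of the high-CpG class, of which 95.0% were marked over all genes, so their count was below that share. The highest were Stk4, the kinase that phosphorylates FoxO factors under oxidative stress, at 73.9, and the acetyltransferase gene Ep300 at 57.7. Pdpk1, Skp2 and Ywhaz were among those with no peak at the RefSeq 5′ end, and all 23 genes were marked in the mm9 list, where every annotated start was counted.

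Foxm1 and the Foxk genes stood among the strongly marked members in the mm10 list, and in the pooled mm9 list only Foxk2 did. Foxm1 turns on genes of G2 and mitosis, and its promoter had a signal of 52.8, with 47.2 and 45.9 in the replicates. Its domain was 2.79 kb in replicate 1 and 4.69 kb in replicate 2, the only member whose widths differed by more than 1.5 times. All 17 mitotic genes listed as Foxm1 targets were marked, 13 of them with high-CpG promoters, so the count lay near the 95.0% of that class. Their median signal was 63.0, led by Ccnb1 (cyclin B1) and Kif20a (a mitotic kinesin), both at 78.4. Foxk1 and Foxk2 repress autophagy genes in fed cells and recruit the Bap1 deubiquitinase and Sin3 complexes. Foxk2 had 69.9, with 59.7 and 63.2, and Foxk1 had 51.3, with 43.8 and 46.6, so Foxk2 was the higher gene in both replicates. In the pooled mm9 list Foxk2 had 27.8, Foxm1 16 and Foxk1 14.1. The medians of that list were 15.9 for all marked genes and 18.6 for the ubiquitous class. In the mm9 lists of replicates 1 and 2 Foxk2 had 35.4 and 41, Foxm1 29.1 and 19, and Foxk1 20.7 and 20.2. The medians there were 19.9 and 18.9 for all marked genes and 23.4 and 22.6 for the ubiquitous class. The Foxk2 domain was 2.58 kb in the replicated list, 2.93 and 3.91 kb in the replicates and 4209 bp in the pooled list. Their 8 listed partners, 7 with high-CpG promoters, were all marked, at a median of 63.9, with Asxl2 at 73.8 and Bap1 at 72.5.

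The broadly transcribed Foxj, Foxn and Foxp genes ranged from strong to weak. Foxj3 had a signal of 57.8 (54.6 and 46.9 in the replicates) and Foxj2 43.6 (39.2 and 37.6). Foxn2 had 55.1 (49.7 and 47.4), and Foxn3, a factor of the DNA damage checkpoint, had 35.5 (29.9 and 34.2). Foxp1 and Foxp4 repress transcription as dimers, and their 5′ ends differed: Foxp4 had 57.1 (47.7 and 53.9) and Foxp1 19.3 (18.3 and 16.8). Foxp4 also had the widest domain of the class, 8.61 kb, with 9.08 and 8.17 kb in the replicates, which put it among the widest 5% of marked genes in the replicated list (5.01% of them, from 7.8 kb up) but not in the pooled list. Without joining, the peak in its promoter window spanned 5088 bp. Listed co-repressors of the Foxp factors were marked in 6 of 6 cases, 5 with high-CpG promoters, at a median of 60.0, with Hdac1 at 64.3 and Gatad2a at 63.1.

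Foxp1 and Foxn3 carried stronger peaks deep inside the gene than at the 5′ end. The Foxp1 peak at chr6:99026686-99029294 overlapped a RefSeq start 494 kb downstream of the gene's 5′ end, the start whose upstream run, with 34 CpG, is printed above. Its signal was 38.4, with 34.7 and 35.2 in the replicates, against 19.3 at the 5′ end. Another RefSeq start, 256 kb into the gene, had a signal of 4.07. In Foxn3 a peak at chr12:99391352-99395060, 169 kb into the gene, reached 55.4, with 50.4 and 46.9 in the replicates, against 35.5 at the 5′ end. That peak lies within 1 kb of the start of Gm51999. The mm9 annotation also gives Foxn3 a coding start 56.3 kb downstream of its first one there. The downstream start had a signal of 18.7 in the mm9 list, and the first had no peak. Whether the downstream start falls in the same mm10 peak was not tested. Of peaks outside the promoter domain, Foxn3 held 25, Foxk1 17, Foxp1 16 and Foxp4 13, and apart from the Foxp1 and Foxn3 peaks just given none of these exceeded 19.4.

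The endoderm factors were unequal. Foxa1 and Foxa3 are pioneer factors of liver and gut. Foxa3 had 68.0, with 60.7 and 59.8 in the replicates, the highest value of any lineage member, and in replicate 1 above Foxk2. Its domain also covers the start of Sympk, which encodes an RNA cleavage and polyadenylation factor, 838 bp away on the other strand. The summit of the strongest peak lay 327 bp from the Sympk start and 1165 bp from that of Foxa3, and the part of Sympk in the Foxa3 value was not tested. Foxa1 had 16.8, with 17.4 and 12.2, from a domain that began 0.703 kb downstream of its 5′ end.

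The early embryo pair, Foxd3 and Foxh1, had wide domains. Foxd3 is needed for the epiblast, for stem cell self-renewal and for the neural crest. Its domain spanned 11 kb, chr4:99649769-99660786, with 10.9 kb in replicate 1 and 11 kb in replicate 2, the widest of all members. It was joined from 5 peaks, and the one in the promoter window spanned 2983 bp. With gaps up to 3 kb joined, the Foxa1 domain, at 15917 bp, exceeded that of Foxd3, at 14048 bp. Peaks covered 97.1% of the Foxd3 gene, and its 11 kb domain reached 6.53 kb upstream and 4.49 kb downstream of the 5′ end. The signal was modest, at 26.3, with 24.7 and 23.8, below the median of all marked genes. Foxh1 carries Smad2 and Smad4 to DNA in Nodal signalling. It had 53.1, with 45.0 and 48.7, and a domain of 6.5 kb, with 6.47 and 6.45 kb in the replicates. The start of Ppp1r16a lies 29 bp upstream of that of Foxh1 on the other strand, within the same domain, so Foxh1 and Ppp1r16a cannot be told apart in this peak. Without joining, the peak in the Foxh1 promoter window spanned 2208 bp. All 17 listed genes of Nodal signalling around Foxh1 were marked, 11 with high-CpG promoters, at a median of 39.1, with Nodal itself at 64.4 under a 10 kb domain and the Foxh1 inhibitor gene Drap1 at 58.7.

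**Figure D2:**
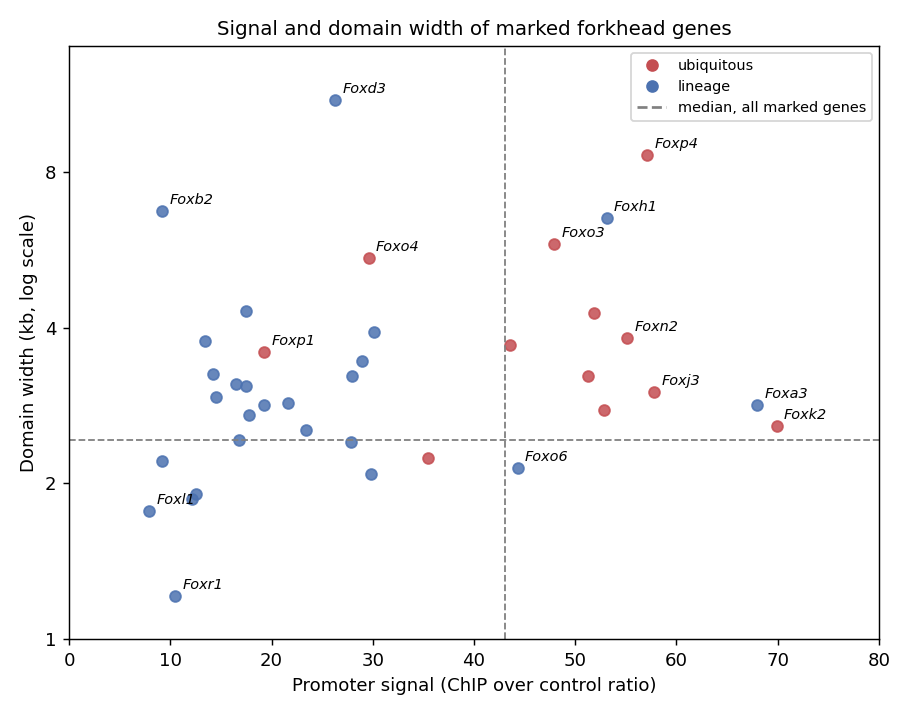
Promoter signal (ratio, horizontal axis) against domain width (kb, log scale) of the marked forkhead genes described here, red for ubiquitous and blue for lineage members, with dashed lines at the medians of all marked genes, 43.1 and 2.43 kb. Foxd3 (11 kb) and Foxb2 (6.72 kb) stand high at the left, with wide domains of low or moderate signal, and Foxk2 and Foxa3 lie at the right with domains under 3 kb in the replicated list.

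Genes of mesoderm and vessels were all marked in the mm10 list, below the general median there. The 9 genes had a median signal of 17.8 and ranged from 7.91 to 27.9. In the mm9 list 8 of the 9 were marked, at a median of 16.3 against 15.9 for all marked genes, and 4 of the 8 lay above the general median. Foxc1 and Foxc2 act in somites, eye and vessel walls. Foxc2 had 27.8 (25.7 and 23.1) and Foxc1 14.5 (13.5 and 13.2), so their replicates did not overlap in the mm10 lists. In the mm9 lists the order was the opposite, with 17.1 at Foxc1 and 12.5 at Foxc2, and the replicates overlapped (24.2 and 16.5 against 15.1 and 25.7). Foxf1 and Foxf2, of the mesenchyme of lung and gut, were closer, at 19.3 (16.9 and 17.1) and 17.5 (15.4 and 15.8), against 19.9 and 13.2 in the mm9 list. Foxd1, of the kidney stroma, had 17.8 (16.2 and 17.9) and Foxd2 21.6 (22.8 and 15.8). Their order was the opposite in replicate 2 and in the mm9 list, with 19.5 at Foxd1 and 15.5 at Foxd2. Foxq1, placed with this group, had 27.9, and Foxs1, of pericytes, 9.20. Foxl1, of the mesenchyme beneath the gut lining, was the weakest marked forkhead gene at 7.91 (7.59 and 6.74), and a window of 2 kb raised its value to 11.1.

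Several of these genes sit in clusters. No pair of neighbours shared a domain, but their 5′ ends lie at least 11.5 kb apart and only gaps under 1 kb were joined. Sharing was thus unlikely from the start. On chromosome 8 the 5′ end of Foxf1 lies 31.8 kb from that of Foxc2, which lies 11.5 kb from that of Foxl1. On chromosome 13 Foxq1 lies 67.6 kb from Foxf2, and Foxf2 181 kb from Foxc1. On chromosome 4 Foxd2 lies 17.2 kb from Foxe3. Within the chromosome 8 cluster the signal was 19.3 at Foxf1, 27.8 at Foxc2 and 7.91 at Foxl1.

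The neural genes described here were all marked, with signals from 9.20 at Foxb2 to 44.3 at Foxo6. Foxp2, known from speech and motor circuits, had 30.1 (26.9 in each replicate), and Foxn4, of retina and spinal interneurons, had 28.9 (25.7 and 25.6). Foxb1, of hypothalamus and spinal cord, had 14.2 (12.2 and 12.7) and Foxd4 17.5 (16.9 and 14.5). Foxb2 paired a low signal, 9.20 (8.81 and 7.25), with a domain of 6.72 kb made of 4 peaks (6.61 and 6.56 kb in the replicates), longer than the gene. Without joining, the peak in its promoter window spanned 1747 bp.

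Genes of placodes, eye, gonad and immune organs mostly had low signals or no peak. Of the 5 placode and eye genes 4 were marked, at a median of 12.9: Foxi3 of the ear placode had 29.8 (30.1 and 21.5), Foxe1 of the thyroid 13.4 (12.2 and 14.8), Foxi2 12.5 (10.8 and 11.9) and Foxe3 of the lens 12.1 (11.7 and 10.1). Foxj1, the switch for motile cilia, had 23.4 (22.3 and 19.4). Foxl2, which maintains the ovary, had 16.5 (13.7 and 17.1). Foxr1, a germline gene, had 10.5, and its replicates, 11.3 and 5.47, differed by 2.06 times, the most of any member.

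The genes without a peak were a placode, a thymus, a T cell and a germline gene. Foxi1, of the inner ear and acid-secreting kidney cells, had its nearest peak 15.0 kb away. Foxp3, which defines regulatory T cells, had its nearest peak 4.25 kb away. Foxn1, lost in nude mice that lack a thymus, had its nearest replicated peak 10 kb away and a weak promoter peak in replicate 2 alone (3.11, 250 bp wide). Inside Foxn1 a peak 25.5 kb from the 5′ end reached 12.9 (11.6 and 11.9). Foxr2, a germline gene on the X chromosome, had no peak at its 5′ end, but a RefSeq start 4.21 kb into the gene carried one of 8.05 (7.34 and 7.77).

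CpG class was read from the mm9 sequence around the annotated starts, with high-CpG promoters holding a 500 bp window of at least 55% G and C and a CpG ratio over 0.75, low-CpG promoters none above 0.48, and the others in between. Of the ubiquitous members 11 had high-CpG and 1, Foxn3, had low-CpG promoters at the mm9 annotation's starts, whereas the lineage members had 15 high, 9 intermediate and 6 low, with Foxl1 not classed. At that annotation's first start Foxn3 had no peak and Foxp1 a signal of 2.94 in the mm9 list. Their mm10 5′ ends had 35.5 and 19.3, so for these 2 genes class and signal may belong to different starts. All 15 high-CpG lineage members were marked, where 95.0% of all high-CpG genes were. Their median signal was 21.6, against 51.9 in the 11 high-CpG ubiquitous members and 50.3 in all marked high-CpG genes. Within that CpG class the lineage median was again the lower, and the part of CpG density in the gap was not tested. Of the intermediate lineage members 8 of 9 were marked (81.7% of all such genes), the exception being Foxp3. Of the low-CpG lineage members 3 of 6 were marked (22.0% of all such genes), and the other 3 were Foxi1, Foxn1 and Foxr2. In the mm9 list 4 of the 6 were marked (22.9% of all such genes), with Foxr2 gained. Foxr2 had 6.83 there at its first start, so its class and call may also belong to different starts.

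Lineage forkhead genes are short, and the mark covered much of their length. Their median length was 3.77 kb, against 59 kb in the ubiquitous class and 18 kb over all genes, and the coding transcripts of 11 of them have 1 exon. All 11 were marked, at a median signal of 17.5, where 21.1% of the 1926 coding genes with 1 exon were. Among the 11 only Foxs1 had a low-CpG promoter. Of all genes, 95.0% with high-CpG and 81.7% with intermediate promoters were marked, so CpG class and exon number cannot be told apart in this count. Peaks covered at least 50% of the gene in 19 of 27 marked lineage members and in 1 of 12 ubiquitous members, Foxo4 (71.8%), against 13.0% of all marked genes. Among genes under 8 kb the counts were 19 of 23 lineage members, against 49.2% of all marked genes of that length. Foxb2 and Foxe1 lay under peaks over 100% of their length, and Foxh1 over 96.7%.

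Domains were wider in both forkhead classes than in the median marked gene, and their order between the classes depended on how peaks were joined. The median width was 3.65 kb in ubiquitous and 2.86 kb in lineage members, against 2.43 kb in all marked genes. In replicate 1 the class medians were 3.46 and 2.79 kb and in replicate 2 they were 4.08 and 2.87 kb, with Foxn1 among the lineage members there. Domains wider than the general median were found in 11 of 12 ubiquitous and 19 of 27 lineage members (50% of all marked genes). When gaps up to 3 kb were joined, the lineage median was 4.92 kb and the ubiquitous one 4.04 kb, which reversed the order. Downstream of the 5′ end the domains reached a median of 2.62 kb in ubiquitous, 1.91 kb in lineage and 1.53 kb in all marked genes. They reached further downstream than upstream in 11 of 12 ubiquitous and 20 of 27 lineage members, and in 80.9% of all marked genes.

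**Figure D3:**
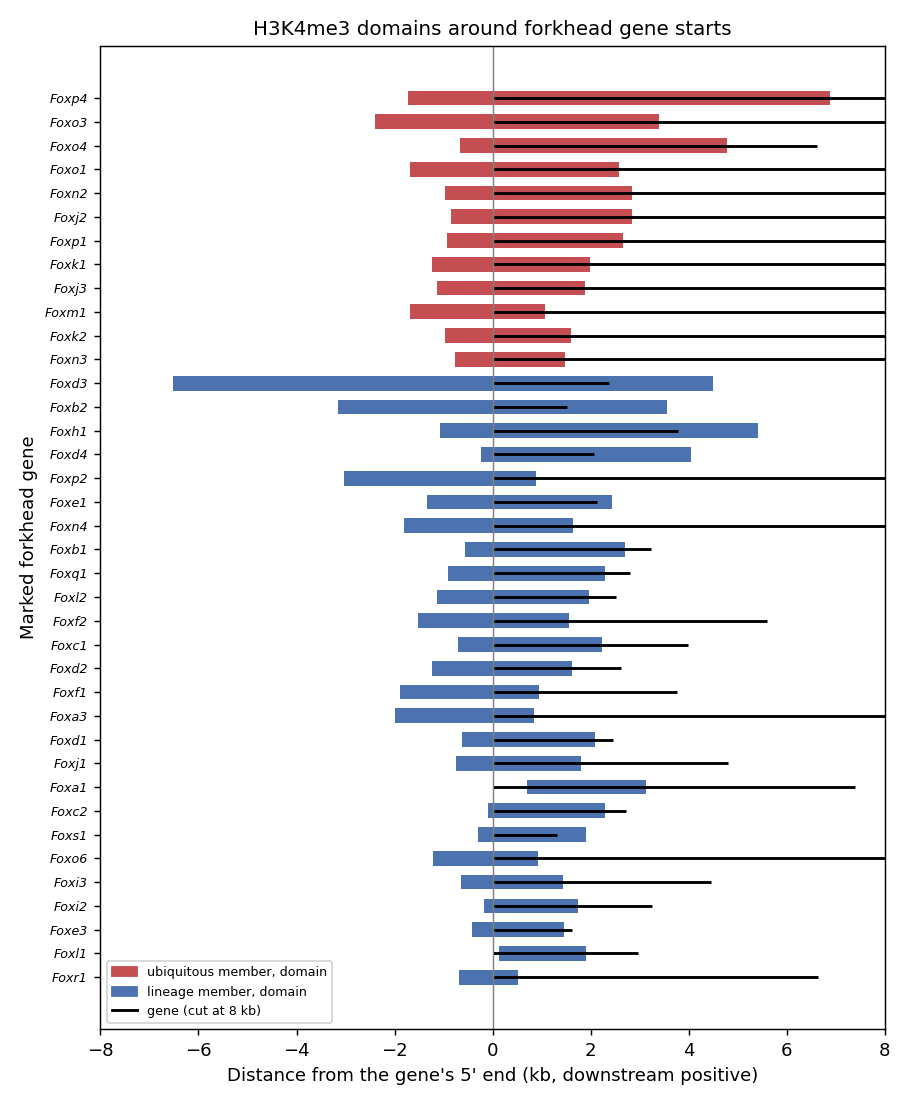
Extent of the H3K4me3 domain of the marked forkhead genes described here (coloured bars, kb from the gene's 5′ end, downstream positive) with the gene drawn as a black line, cut at 8 kb. The lines of most lineage genes end inside or just beyond the bar, Foxd3 extends 6.53 kb upstream, and the Foxa1 domain begins 0.703 kb downstream of the 5′ end.

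Another annotated gene start lay in the domain of 12 of the 39 marked members, 4 ubiquitous and 8 lineage. The share over all marked genes was not computed, so whether this count is high or low is unknown. The partners were coding genes at Foxa1 (Ttc6), Foxa3 (Sympk), Foxh1 (Ppp1r16a), Foxj3 (Frg2f1) and Foxm1 (Rhno1), and long noncoding RNA genes at the other 7, among them Fendrr at Foxf1 and Foxl2os at Foxl2. The summit was nearer the partner's start in Foxa1, Foxa3, Foxh1 and Foxm1. Without these 12 members the class medians were again 51.6 and 17.8.

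The replicate signals of a member lay close together. The higher replicate signal exceeded the lower by a median of 1.11 times over the 39 marked members and by 1.08 times over all genes. It reached 1.16 times at most in the ubiquitous class. Replicate 1 was the higher in 24 of 39 members, where it was the higher in 63.8% of all genes. The widths differed by a median of 1.08 times.

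In the mm9 lists, which the authors called as broad peaks and scored separately, the ubiquitous median was again the higher, with a smaller gap. The labels do not say what the mm9 ratio was taken over. Every annotated coding start of a gene was counted there, internal ones included. The pooled mm9 list marked 39 of the 43 genes (71.5% of all genes), now with Foxr2 and without Foxl1, which has no coding start in the mm9 annotation. Its median signal was 18.6 in ubiquitous, 13.6 in lineage and 15.9 in all marked genes. The lineage members above the general median there numbered 10 of 27, in place of 3.

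Other families of developmental transcription factors gave a scale for these values. Sox genes were marked in 17 of 18 cases, at a median signal of 19.7, led by Sox2 at 66.1 and Sox12 at 49.7, with Sox30 unmarked. T-box genes were marked in 9 of 13 cases, at 20.8, led by Tbx21 at 28.8 and Tbx3 at 23.1, with Tbx10 and Tbx19 among the unmarked. Gata genes were marked in 4 of 6 cases, at 13.8, led by Gata5 at 14.5 and Gata6 at 14.2, without Gata1 and Gata4, and in 5 of 6 in the mm9 list. Klf genes were marked in 15 of 17 cases, at 54.9, led by Klf5 at 69.0 and Klf11 at 68.7, without Klf17 and Klf8. These 4 families were not split into classes, and the whole forkhead family had a median of 26.3 over its 39 marked genes. Of its 2 classes, the lineage median of 17.8 lay close to the Sox and T-box medians. The ubiquitous median of 51.6 lay near that of the Klf genes, several of which are active in stem cells. These are medians over different genes and no test was made between them.

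**Figure D4:**
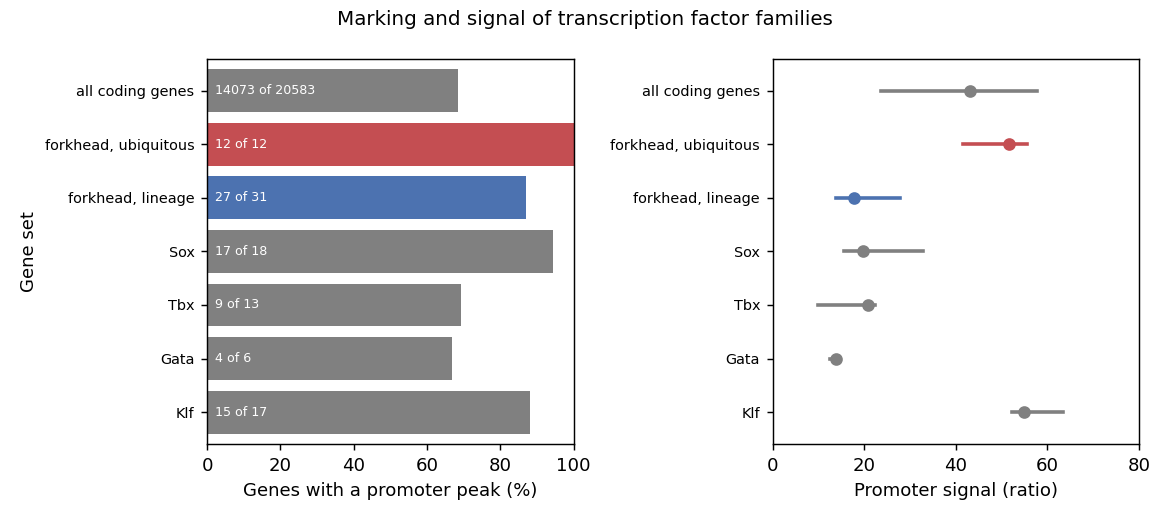
Left, percentage of genes with a promoter peak in all coding genes, the 2 forkhead classes and 4 other transcription factor families, with counts in the bars. The other families are whole, not split into classes. Right, median promoter signal (ratio) of the marked genes of each set, with lines from the lower to the upper quartile, where the lineage forkhead genes (17.8) lie beside Sox (19.7) and the ubiquitous ones (51.6) beside Klf (54.9).

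Most genes that define stem cells were strongly marked in the mm10 list. Of 11 stem cell markers 10 were marked, all but Esrrb, where 68.4% of all genes were. The 11 include 5 with high-CpG promoters. The marked ones had medians of 58.8 in signal and 13.3 kb in width, with Pou5f1 at 69.4 and Sox2 at 66.1. Nanog (37.7) and Dppa5a (16.1) lay below the median of all marked genes, 43.1. The mm9 list, where every annotated start was counted, also marked 10 of the 11, with Esrrb gained and Nanog lost. There Pou5f1 (20.9), Sox2 (19.4) and Klf4 (31.6) lay above the median of all marked genes, 15.9, and the other marked ones lay below it. Of 8 fibroblast genes, chosen to follow feeder cells, 4 were marked, from 5.75 to 23.4 at Thy1, with Col1a1 at 15.7. Col3a1, Dcn, Lum and Postn had no peak. None of the 8 has a high-CpG promoter. Over all genes, 81.7% with intermediate and 22% with low-CpG promoters were marked. Of 5 primitive endoderm genes, Lama1 (47.0) and Sox17 (9.49) were marked, and Gata4, Dab2 and Afp were not. High-CpG promoters belong to 3 of the 5, a class marked in 95.0% of cases over all genes. In the mm9 list 4 of the 5 were marked, with Gata4 at 9.1 and Dab2 at 22.6 gained. Apart from the lowest fibroblast value, 5.75, the fibroblast and endoderm values fall in the range of the marked lineage forkhead members, 7.91 to 68.0, and the part of other cell types in the lineage signals was not tested.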

How the data were processed

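The authors deposited H3K4me3 peak lists, not reads: 4 for mm10 (replicated, pooled, replicate 1, replicate 2) and 3 for mm9. In the mm10 lists the signal of a peak is the authors' ratio of ChIP over control, beside the deposited −log10 of q. The mm9 lists hold a deposited ratio with the q-value itself. The labels and file descriptions name no aligner, peak caller or read depth. The replicated list has 62128 peaks, all with the coordinates and signal of a pooled peak.

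Gene 5′ ends came from the RefSeq table, with strands from the GENCODE vM1 annotation (18392 genes by name, 2191 by synonym; 1304 without a strand were left out). Promoter sequences are RefSeq's. Peak overlap (at least 1 bp), domains and CpG classes (500 bp windows between 1300 bp before and 200 bp after any coding vM1 start, highest class kept) were computed in Python 3.11.15. The scripts were tested on simulated data.

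Members, classes and lists were chosen with earlier results of these data known. Full values were set for the 6 strongest and 4 widest members of each class and those unmarked or discordant between replicates, and in other lists the 2 strongest and 2 unmarked genes are named. The alternatives were other windows (500 bp, 2 kb), overlaps, joining gaps, a stricter q, the pooled and mm9 lists, each replicate alone and other class memberships. Some genes, among them forkhead genes, are not reported here by name.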

Additional observations from a re-analysis of the deposited data

How the results depend on the processing

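The order of the classes in signal, ubiquitous above lineage, held in 12 of 12 settings. The ratio of medians ran from 1.37 (mm9 list) to 2.94 (without Foxd3 and Foxh1). The order in width held in 13 of 14, from 0.821 (joining over 3 kb) to 1.42. These settings share peaks and are not separate checks, and they include the alternatives chosen after seeing the data. Several, such as the stricter q and the 2 kb window, returned the signal medians of 51.6 and 17.8 again. The ubiquitous median signal of 51.6 was 43.8 to 46.2 when one replicate was left out and 18.6 in the mm9 list. The lineage median signal of 17.8 was 16.5 to 16.9 when one replicate was left out, 18.5 with a 500 bp window, 13.6 in the mm9 list and 19.3 with Foxo1 and Foxp1 counted as lineage members. The ubiquitous median width of 3645 bp was 3456 to 4080 bp when one replicate was left out and 5000 bp in the mm9 list. The lineage median width of 2856 bp was 2788 to 2872 bp when one replicate was left out, 3017 bp in the pooled list, 3600 bp in the mm9 list, 2944 bp with Foxo1 and Foxp1 counted as lineage members, 2431 bp without joining and 4923 bp with joining over 3 kb. In alternatives chosen after seeing the data, the lineage median was 21.6 among high-CpG promoters for signal and 2705 bp for width without other starts in the domain. The number of marked members ranged from 38 to 40 with all 43 counted and was 37 without Foxd3 and Foxh1. The cause of these shifts was not tested. Single replicate lists were called from fewer reads than the pooled one, and the mm9 ratio is on another scale. No paired analysis was possible because there is 1 group. With the depth unknown, weak peaks such as that of Foxn1 in replicate 2 cannot be told from absence of the mark.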
